A study of Mus musculus with 43 samples.

Results

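The SLC25 carriers were taken as every gene whose symbol is Slc25a followed by a number, which gave 47 of the 26264 genes in each of 6 count tables from mouse fat cells and fat tissue. SLC25 proteins are the main family of transporters in the inner mitochondrial membrane. They exchange ATP, phosphate, carboxylates, amino acids, acylcarnitines, cofactors and metals between matrix and cytosol, and they reach the membrane through the TIM22 import route. The uncoupling protein UCP1, which makes heat in brown and beige fat, has the same fold, but its symbol places it outside the 47 genes. Brown and beige fat cells burn fatty acids in many mitochondria, so ADP/ATP exchange, phosphate import and acylcarnitine import are prominent there.

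Polyadenylated RNA was sequenced from 43 libraries in 15 groups, and the question set by the series title is what the transcription factors RUNX1 and RUNX2 do in adipocytes. Brown preadipocytes (labelled as the cell line BAT) were made to overexpress Runx1 or Runx2 or were overexpression controls (labelled OEV, genotype WT), and were then differentiated into mature brown adipocytes, with 3 libraries per group. The same cells were also labelled as knocked out for Runx1, for Runx2 or for both, or as wild-type knockout controls, again differentiated and with 3 libraries per group. A further table compared differentiated cultures with full-length Runx2 and with Runx2 lacking a part labelled IDR, with 2 libraries each. White fat labelled IWAT (inguinal fat, iWAT below) was taken from control mice with floxed Runx1 or floxed Runx2 and from mice in which Adipoq-cre deleted the floxed gene. Adipoq-cre acts in adipocytes, so the other cells of the depot keep the gene. A last set of iWAT, labelled HFD, came from WT and Runx1 knockout mice, for which the labels name no cre line. Each iWAT group had 3 libraries, and the labels give no age or sex. The labels do not say whether libraries of a group came from separate cultures or mice, so p-values measure only the spread between these libraries.

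Each library held 28.1 to 52.2 M counts. Runx1 rose in every RUNX1 library, to 66.9 to 85.8 CPM (counts scaled to library size) against 4.26 to 6.70 CPM in controls. Runx2 rose in every RUNX2 library (281 to 332 against 7.74 to 9.29 CPM). Each group also had more of the other transcript by edgeR's test. Runx1 read 28.8 to 32.6 CPM with RUNX2 (log2 fold change 2.44, adjusted p = 2.3e-07). Runx2 read 15.3 to 17.9 CPM with RUNX1 (0.94, adjusted p = 3.1e-05). Neither group therefore had a rise of 1 factor alone. In the cultures labelled as knockouts the transcript of the targeted gene overlapped with control, with Runx1 at 4.75 to 6.74 against 2.80 to 8 CPM and Runx2 at 6.83 to 8.67 against 6.82 to 9.18 CPM, so these counts do not check the labels. In the double knockout cultures Runx1 read 3.31 to 6.38 CPM and Runx2 6.07 to 8.84 CPM, which overlap with the same controls. Runx1 read 20.7 to 21.4 CPM in Runx1 knockout iWAT and 25.2 to 42.8 CPM in its controls (adjusted p = 0.078), and in the HFD set the groups overlapped. Runx2 read 2.40 to 6.74 CPM in Runx2 knockout iWAT and 4.19 to 15 CPM in its controls, which also overlap. Runx1, not the targeted gene of that set, had separate groups, at 8.99 to 12.3 CPM in knockouts and 14.7 to 34.8 CPM in controls. Its log2 fold change was -1.28 ± 0.33 (adjusted p = 0.22), and that of Runx2 was -1.19 ± 0.54 (adjusted p = 0.25). Adipocyte markers were high in all libraries, with summed levels of at least 3807 CPM. Some libraries stood apart. Cardiac muscle markers summed to 93, 379 and 1447 CPM in OEV replicates 1 and 2 and the third RUNX1 library, where the remaining libraries of the table had 1 to 2 CPM. Skeletal muscle markers summed to 8652 to 19404 CPM in Runx1-floxed control replicate 2 and Runx1 knockout iWAT replicates 2 and 3, and to 9867 CPM in Runx2-floxed control replicate 3. Double knockout replicate 1 had an adipocyte marker sum of 16024 CPM, against 6981 to 8157 CPM in the other libraries of that table. The part of these differences in the results was not tested, and counts without such libraries are given below.

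RefSeq promoters were found for 36 of the 47 carriers (assembly GRCm38.p6, not the mm39 build of the counts). A chromosome was left out of this search, for carriers and for all genes, so any carrier on it counts as without a promoter. The 250 bases before the start are printed for the carriers that the results turn on most. These are Slc25a25, the one that moved most in iWAT, Slc25a34, the one that fell most in cultures, and Slc25a20, the acylcarnitine carrier. Sequences run 5′ to 3′ on the gene's strand. Capitals mark TGACGTCA (the cAMP response element, CRE) in the promoter of Slc25a25 and TGTGGT (the RUNX motif), on either strand, in that of Slc25a20. The promoter of Slc25a34 held none of the 4 motifs searched.
Slc25a25 (last of 3 listed starts, chr2:32424067-32424316, minus strand): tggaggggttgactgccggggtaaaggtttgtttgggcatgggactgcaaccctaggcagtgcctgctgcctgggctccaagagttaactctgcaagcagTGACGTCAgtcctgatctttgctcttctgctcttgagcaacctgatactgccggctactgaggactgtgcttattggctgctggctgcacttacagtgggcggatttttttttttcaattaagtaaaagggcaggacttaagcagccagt
Slc25a34 (chr4:141623835-141624084, minus strand): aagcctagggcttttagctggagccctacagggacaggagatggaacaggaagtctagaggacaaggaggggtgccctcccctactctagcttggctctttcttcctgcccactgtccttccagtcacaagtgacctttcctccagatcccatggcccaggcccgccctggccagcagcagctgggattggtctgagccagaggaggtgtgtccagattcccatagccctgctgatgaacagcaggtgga
Slc25a20 (chr9:108661886-108662135, plus strand): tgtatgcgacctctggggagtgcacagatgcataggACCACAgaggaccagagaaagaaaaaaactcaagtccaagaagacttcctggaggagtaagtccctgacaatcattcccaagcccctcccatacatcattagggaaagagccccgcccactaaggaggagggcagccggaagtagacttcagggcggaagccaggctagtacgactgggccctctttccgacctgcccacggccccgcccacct
Both strands were searched, and no 2 motifs found overlapped. TGTGGT was present in 4 of 36 carriers (11.1%), namely Slc25a18, Slc25a20, Slc25a21 and Slc25a24, and in 15.9% of 27025 genes with a promoter. TGACGTCA was present in 2 (5.56%), and in 1.77% of all. It lay 161 bases before the start of Slc25a36 and 150 before the last listed start of Slc25a25. The other listed starts of Slc25a25 held none of the 4 motifs. For every motif a gene counted if any of its listed starts had a match. The NRF1 motif (GCGC and TGCGC joined by any 1 base) was present in Slc25a3 and Slc25a31 (5.56%, against 4.23% of all), and the ERR motif TCAAGGTCA in no carrier and 0.422% of all. These matches describe letters in a window, not binding.

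Levels were compared between carriers per length, as CPM per kilobase of exon. Slc25a5, the ADP/ATP carrier ANT2, had the highest level in all 6 control or reference groups. It held 23.4 ± 1.10% (SD, n = 3) of the summed family level in OEV cultures, 22.8 ± 1.27% in Runx2-floxed iWAT and 18.9 ± 2.71% in HFD control iWAT. In OEV cultures it stood at 479 ± 48.4, followed by the ADP/ATP carrier ANT1, Slc25a4 (255 ± 32.4), the phosphate carrier Slc25a3 (224 ± 19.3) and the glutathione carrier Slc25a39 (189 ± 25.2). Of the last 3, each differed from its neighbour in this order by less than the summed spread. In Runx1-floxed iWAT Slc25a5 (217 ± 16.8) was followed by Slc25a3 (128 ± 13.8) and the citrate carrier Slc25a1 (104 ± 8.09), and in HFD control iWAT Slc25a1 (211 ± 34.6) was within the spread of Slc25a5 (219 ± 42.9). Slc25a4 and Slc25a5 resemble each other and have processed copies, so their split in the counts is uncertain. At the other end Slc25a31, Slc25a41 and Slc25a54 stayed under 0.43 CPM in every library and Slc25a43 under 1.51 CPM, and none of the 4 passed the count filter in any table.

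RUNX1 overexpression lowered carriers more often than it raised them. Of 43 carriers tested 26 changed (60.5%, against 54.0% of all genes), 21 lower (48.8%, against 25.8%) and 5 higher (11.6%, against 28.2%). The median log2 fold change was -0.40 over the carriers and 0.06 over all genes. At 2-fold or more 7 fell (16.3%, against 7.92%) and 1 rose (2.33%, against 13.1%). The groups did not overlap for 29 carriers (67.4%, against 59.7% of all genes). With RUNX2, 31 of the 43 tested changed (72.1%, against 60.9%), 27 lower (62.8%, against 29.6%) and 4 higher (9.30%, against 31.3%), with a median of -0.58 against 0.03 and at 2-fold or more 12 lower (27.9%, against 11.3%) and 1 higher (2.33%, against 17.1%). For 37 carriers the RUNX2 and control libraries did not overlap (86.0%, against 69.5%). Both comparisons use the same 3 controls. In such bulk samples fewer differentiated cells and less RNA per cell cannot be told apart. Of 7 brown fat markers 6 fell with each factor, and the adipocyte marker sum was 6724 to 8309 CPM with RUNX1, 3807 to 4542 CPM with RUNX2 and 7580 to 7884 CPM in controls. Of the 8 adipocyte markers 3 were called higher and 3 lower with RUNX1, and 7 lower and 0 higher with RUNX2. Stromal progenitor markers summed to 318 to 351, 567 to 612 and 79 to 116 CPM. Of the 5 tested, 3 were called higher and 0 lower with RUNX1, and 3 higher and 1 lower with RUNX2. The part of these shifts in the carrier results was not tested.

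The plot of log2 fold changes for the tested carriers shows these directions by role.

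**Figure D1:**
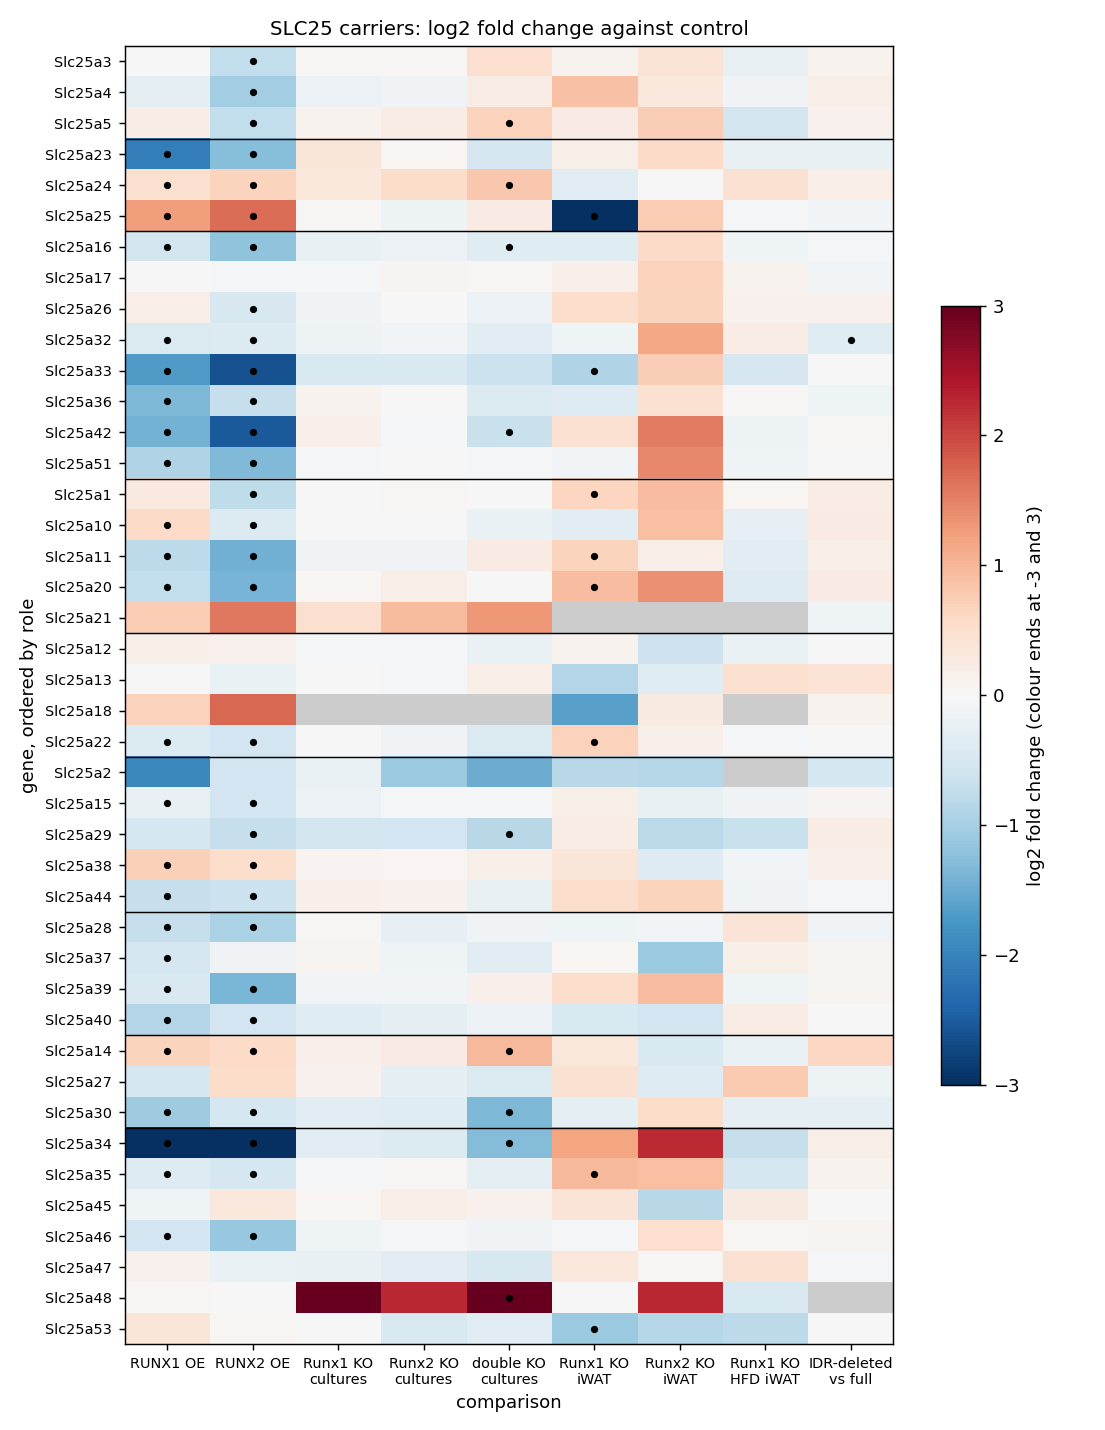
Log2 fold change of the tested carriers (42 rows, ordered by role with lines between roles) in 9 comparisons with a control or reference group (columns), where black dots mark an adjusted p under 0.05 and grey marks carriers under the count filter. The RUNX1 and RUNX2 columns carry 25 and 30 dots, mostly on blue, and the single knockout cultures carry none.

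The steepest fall was that of Slc25a34, a little-studied carrier. It read 86.1, 121 and 72.5 CPM in the 3 OEV libraries, 4.20, 4.15 and 8.70 CPM with RUNX1 and 2.64, 1.55 and 2.59 CPM with RUNX2. All libraries with either factor lay far below all controls. Slc25a34 fell by 4.04 on the log2 scale with RUNX1 (SE 0.34, adjusted p = 5.9e-06) and by 5.35 with RUNX2 (SE 0.36, adjusted p = 7.5e-07). RUNX2 libraries were also below RUNX1 libraries, by a log2 difference of -1.32 (SE 0.34, adjusted p = 0.012), a call lost without RUNX2 replicate 2 (adjusted p = 0.053).

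Carriers of cofactors and nucleotides formed the role with most falls, 7 of 9 with RUNX1 and 8 of 9 with RUNX2. Slc25a33, a pyrimidine nucleotide carrier, read 83.6, 91.1 and 71.5 CPM in controls, 26.1, 26.9 and 22.9 CPM with RUNX1 and 15, 12.3 and 12.8 CPM with RUNX2. Its log2 fold changes were -1.70 ± 0.12 (SE) and -2.62 ± 0.13 (adjusted p = 8.5e-07 and 1.8e-08). Slc25a42, which carries coenzyme A into the matrix, went from 123, 168 and 119 CPM to 46.4, 54.3 and 54.0 CPM with RUNX1 and 25.4, 23.3 and 23.2 CPM with RUNX2. That is -1.41 ± 0.13 and -2.51 ± 0.14 (adjusted p = 6.0e-06 and 4.7e-08). Neither gene had an overlap between any pair of the 3 groups.

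Slc25a36, the other pyrimidine nucleotide carrier, was lower with RUNX1 (24.0, 20.4 and 28.6 CPM) than with RUNX2 (29.9, 39.0 and 44.4 CPM), against 64.9, 54.6 and 64.9 CPM in controls. Its changes were -1.34 ± 0.16 and -0.70 ± 0.16, and the difference between the factors was 0.64 ± 0.16 (adjusted p = 0.0093). The NAD carrier Slc25a51 changed by -0.90 and -1.33, the S-adenosylmethionine carrier Slc25a26 fell with RUNX2 (-0.49) and was not called with RUNX1, and the peroxisomal carrier Slc25a17 was called with neither.

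**Figure D2:**
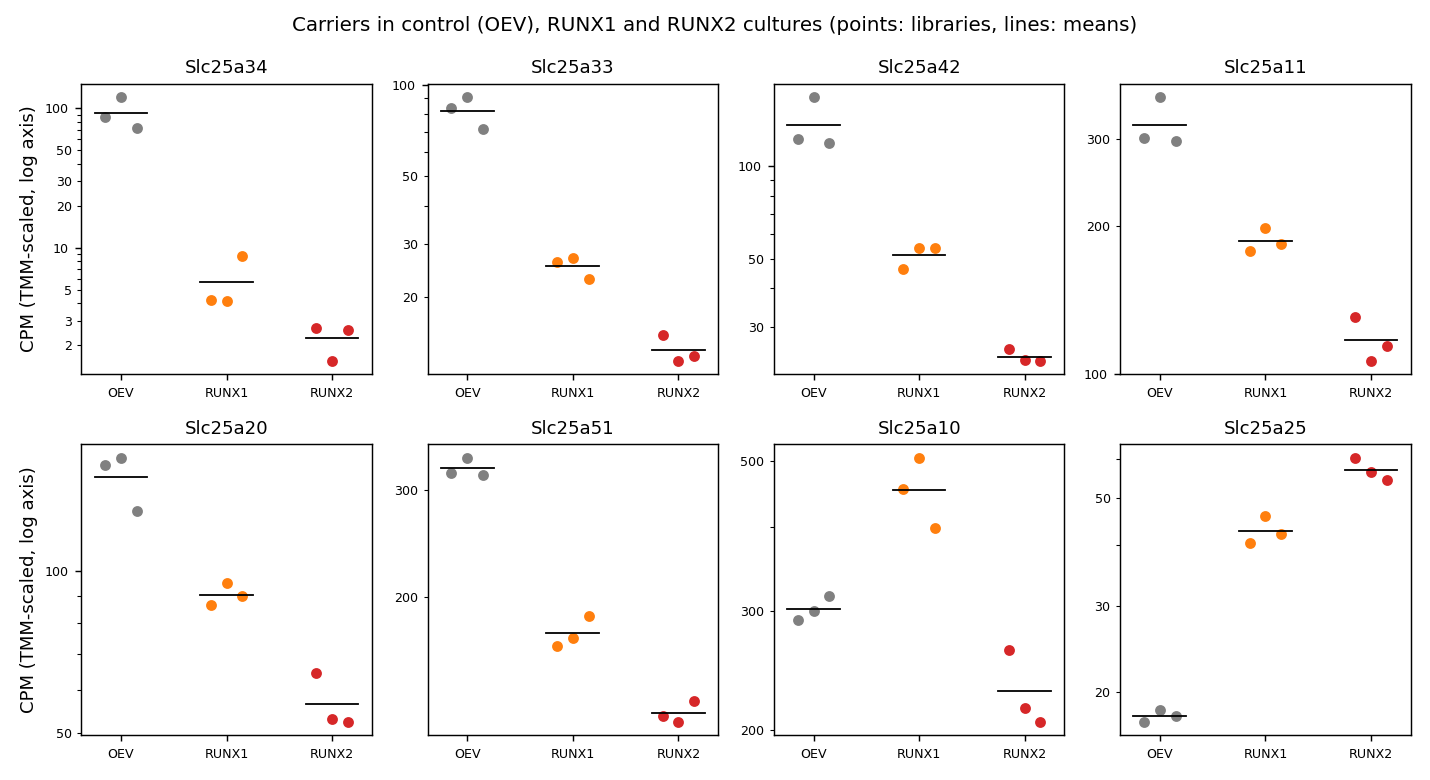
CPM on log axes in the 3 OEV, 3 RUNX1 and 3 RUNX2 libraries for 8 carriers (points are libraries and lines are group means). Slc25a34, Slc25a33, Slc25a42, Slc25a11, Slc25a20 and Slc25a51 step down from control to RUNX1 to RUNX2, Slc25a25 steps up, and Slc25a10 is highest with RUNX1 and lowest with RUNX2.

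Among the carboxylate and acylcarnitine carriers, Slc25a20 hands acylcarnitines to the matrix for fatty acid oxidation. It read 158, 163 and 129 CPM in controls, 86.3, 94.8 and 89.9 CPM with RUNX1 and 64.6, 52.9 and 52.4 CPM with RUNX2, so the 3 groups were separate. The log2 fold changes of Slc25a20 were -0.73 ± 0.11 (adjusted p = 0.00024) and -1.40 ± 0.11 (adjusted p = 1.0e-06), and the factors differed by -0.67 ± 0.11 (adjusted p = 0.00084). Slc25a11, the oxoglutarate carrier of the malate-aspartate shuttle, read 300, 365 and 296 CPM in controls and fell to 177, 197 and 184 CPM with RUNX1 and 130, 106 and 114 CPM with RUNX2 (-0.78 ± 0.11 and -1.45 ± 0.11, adjusted p = 0.00011 and 5.4e-07). The citrate carrier Slc25a1 supplies citrate for lipid synthesis. It read 261, 273 and 253 CPM in controls, 308, 364 and 286 CPM with RUNX1, which was not called, and 173, 135 and 153 CPM with RUNX2 (-0.77 ± 0.11, adjusted p = 0.00011).

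Slc25a10, the dicarboxylate carrier, was the one carrier called in opposite directions by the factors. It read 292, 300 and 316 CPM in controls, 455, 506 and 398 CPM with RUNX1 and 263, 216 and 206 CPM with RUNX2. Every RUNX1 library lay above and every RUNX2 library below all controls (0.58 ± 0.11 and -0.41 ± 0.11, adjusted p = 0.0013 and 0.0094).

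The carriers of ATP, ADP and phosphate differed between the RUNX1 and RUNX2 cultures. Slc25a3, Slc25a4 and Slc25a5 were not called with RUNX1 and all fell with RUNX2, with log2 fold changes of -0.75 ± 0.10, -1.03 ± 0.12 and -0.73 ± 0.10 (adjusted p = 5.3e-05, 1.4e-05 and 7.8e-05). Slc25a5 read 710, 869 and 787 CPM in controls, 928, 997 and 845 CPM with RUNX1 and 506, 442 and 475 CPM with RUNX2. The direct comparison gave log2 differences of -0.73 to -0.96 for the 3 genes, all called.

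The ATP-Mg/phosphate carriers set the adenine nucleotide pool of the matrix and respond to calcium. Slc25a25 was the carrier with the largest called rise with both factors, from 17.4, 18.4 and 17.9 CPM to 40.4, 46.0 and 42.2 CPM with RUNX1 and 60.5, 56.6 and 54.4 CPM with RUNX2. No library overlapped between groups, and the log2 fold changes of Slc25a25 were 1.26 ± 0.10 and 1.67 ± 0.10 (adjusted p = 1.1e-06 and 6.3e-08). Its relative Slc25a23 went the other way, from 83.1, 97.6 and 76.7 CPM to 14.3, 18.8 and 28.1 CPM with RUNX1 and 35.8, 35.8 and 35.0 CPM with RUNX2 (-2.07 ± 0.20 and -1.27 ± 0.20, adjusted p = 7.4e-06 and 0.00016). Slc25a24 rose, from 23.4, 16.0 and 28.4 CPM to 32.0, 33.6 and 29.6 CPM with RUNX1 and 28.5, 39.5 and 38.9 CPM with RUNX2 (0.49 ± 0.19 and 0.66 ± 0.19, adjusted p = 0.048 and 0.011). The RUNX1 call of Slc25a24 was lost without OEV replicate 1 or 2 or RUNX1 replicate 1 or 2, with an adjusted p of up to 0.17.

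The other called rises were those of Slc25a38, which brings glycine in for heme synthesis, and Slc25a14, an uncoupling-like protein. Slc25a38 read 9.92, 13 and 12.3 CPM in controls, 18.9, 22.5 and 16.6 CPM with RUNX1 and 19, 15.5 and 16.1 CPM with RUNX2, for changes of 0.72 ± 0.15 and 0.52 ± 0.15 (adjusted p = 0.0019 and 0.010). Slc25a14 read 3.95, 5.67 and 4.35 CPM in controls, 8.05, 7.29 and 6.76 CPM with RUNX1 and 7.06, 6.35 and 7.43 CPM with RUNX2 (0.66 ± 0.18 and 0.58 ± 0.18, adjusted p = 0.0088 and 0.015). All treated libraries of both genes lay above all controls. The RUNX2 call of Slc25a14 was lost without OEV replicate 1 or RUNX2 replicate 3 (adjusted p up to 0.060). The uncoupling-like Slc25a30 fell from 10.7, 9.23 and 7.90 CPM to 3.72, 4.02 and 5.47 CPM with RUNX1 (-1.07 ± 0.19, adjusted p = 0.00065) and to 6.13, 6.49 and 6.73 CPM with RUNX2 (-0.52 ± 0.19, adjusted p = 0.031, lost without 5 of the 6 libraries in turn).

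The iron and glutathione carriers fell in 4 of 4 cases with RUNX1 and 3 of 4 with RUNX2. Their changes were -0.69 and -0.95 for the iron carrier Slc25a28, -0.46 and -1.37 for Slc25a39 and -0.87 and -0.58 for Slc25a40, and the iron carrier Slc25a37 fell with RUNX1 (-0.50) and was not called with RUNX2. Slc25a44, which imports branched-chain amino acids and has been tied to heat production in brown fat, changed by -0.68 ± 0.08 and -0.66 ± 0.08 (adjusted p = 3.6e-05 and 3.1e-05). Of the aspartate/glutamate and glutamate carriers Slc25a12, Slc25a13 and Slc25a18 were not called, and Slc25a22 changed by -0.40 and -0.58.

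RUNX2 was set against RUNX1 directly, which leaves out the shared controls. Both groups had raised Runx1 and Runx2 transcripts, in different amounts. Of 43 carriers 23 differed (53.5%, against 39.9% of all genes), 17 lower with RUNX2 (39.5%, against 21.0%) and 6 higher (14.0%, against 18.9%). For 25 the groups did not overlap (58.1%, against 51.3%). The lower ones included Slc25a42 (-1.11 ± 0.13) and Slc25a1 (-1.05 ± 0.11). Those higher were Slc25a27, an uncoupling-like protein (1.07 ± 0.27), Slc25a23, Slc25a36, Slc25a30, Slc25a25 and Slc25a37. The call of Slc25a30 was kept in 1 of 6 fits that leave out a library (adjusted p up to 0.12). Without the 3 libraries that carried cardiac transcripts the counts were 24 with RUNX1, 26 with RUNX2 and 28 between them. That fit has 1 control library, which is assumed to vary like the other groups, so the first 2 counts carry little weight. None of the 3 counts was set against the share of all genes called in that fit. Of the called carriers, 20 of 26, 24 of 31 and 20 of 23 were called under every alternative run.

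Other genes of mitochondrial transport were read from 5 lists. Of 13 genes for carrier import 1 fell with RUNX1 (Tomm40, the outer membrane pore, -0.48 ± 0.17), with a list median of -0.03, and 13 fell with RUNX2, with a median of -0.56. Genes of mitochondrial mass fell in 9 of 14 cases with RUNX1 and 14 of 14 with RUNX2, with medians of -0.36 and -0.94. The matrix protease Lonp1 (-1.45 and -1.95) was the leading gene of the list with RUNX1, and the chaperone Hspa9 (-1.58) with RUNX2. Enzymes that work with the carriers fell in 13 of 24 and 20 of 24 cases, among them Bckdha of branched-chain amino acid breakdown (-1.21 and -2.42), and rose in 2 and 1, with Cpt1a, which makes acylcarnitines, at 0.61 and 1.22. Of 15 other inner membrane transporters 8 and 9 fell and 4 and 3 rose, led by the sideroflexin Sfxn3 (1.40 and 1.82). Among 5 uncoupling proteins and carrier-like proteins 2 and 5 fell, with Ucp1 at -6.67 ± 0.26 and -9.21 ± 0.33.

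In cultures labelled as single knockouts no carrier was called by edgeR's test. With Runx1 this was 0 of 42 tested (0.435% of all genes were called), with 4 at an unadjusted p under 0.05, and with Runx2 0 of 42 (0.184% of all), with 3. The 4 and the 3 were not set against the matching share of all genes. DESeq2 also called 0 in both. Slc25a20 read 147, 159 and 158 CPM in controls, 158, 152 and 172 CPM in Runx1 and 184, 179 and 172 CPM in Runx2 knockout cultures, the last a log2 difference of 0.21 ± 0.11 (adjusted p = 0.84). Slc25a25 read 13.8, 16.0 and 17.2 CPM in controls, 17.5, 14.5 and 15.9 CPM in Runx1 and 15.3, 13.1 and 13.8 CPM in Runx2 knockout cultures, all within or next to the control range. None of the genes in the 5 lists was called either.

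The double knockout cultures had 10 of 42 carriers called (23.8%, against 15.3% of all genes), 6 lower (14.3%, against 7.01%) and 4 higher (9.52%, against 8.27%). Adipocyte markers summed to 7695 to 16024 CPM in the double knockout and 6981 to 7050 CPM in controls, with 1 of 8 called higher. Brown fat markers summed to 490 to 914 and 395 to 456 CPM, with 3 of 7 called higher, and the part of both in the carrier results was not tested. The groups did not overlap for 16 carriers (38.1%, against 30.6% of all genes). Slc25a34 read 133, 183 and 158 CPM in controls, 129, 128 and 117 CPM and 108, 117 and 129 CPM in the single Runx1 and Runx2 knockouts and 58.0, 70.7 and 63.0 CPM in the double knockout. All double knockout libraries of Slc25a34 lay below all others (-1.30 ± 0.14, adjusted p = 0.00011), and it was the only one of the 10 called under every alternative. It was also lower with overexpression of either factor, in other cultures and against other controls. Slc25a42 read 127, 164 and 159 CPM in controls and 79.1, 97.4 and 105 CPM in the double knockout (-0.68 ± 0.13, adjusted p = 0.0054). Falls were also called for Slc25a30 (14.2, 10.6 and 7.86 against 1.43, 4.69 and 6.58 CPM, -1.35 ± 0.39), for the basic amino acid carrier Slc25a29 (6.79, 12.2 and 10.2 against 7.05, 4.85 and 4.46 CPM, -0.84 ± 0.22) and for Slc25a16 (188, 168 and 160 against 133, 136 and 132 CPM, -0.37 ± 0.10), with adjusted p of 0.025 to 0.036.

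Of the rises in the double knockout, Slc25a5 went from 428, 607 and 634 to 1135, 787 and 776 CPM (0.69 ± 0.18, adjusted p = 0.022). Slc25a24 went from 12.9, 8.18 and 10.5 to 18.7, 18.1 and 18.7 CPM (0.82 ± 0.16, adjusted p = 0.0049). Slc25a14 went from 3.88, 3.49 and 3.61 to 11.5, 5.06 and 5.21 CPM (0.98 ± 0.30, adjusted p = 0.047), a change of 0.50 and no longer called without double knockout replicate 1. All 3 had separate groups. Slc25a48, a carrier linked to choline, had 6 counts over the 3 controls, all in replicate 3, and 150 over the 3 double knockout libraries, at 0.419, 1.67 and 2.12 CPM. The ratio was 23.2, with an exact 95% counting interval of 10.4 to 64.2 (adjusted p = 0.010). Low counts were mostly even, so mates may have been counted apart, and on halved counts of 3 and 75 the interval is 7.64 to 115. Both cover counting error only. Slc25a20 (173, 146 and 144 CPM) and Slc25a25 (18.1, 18.5 and 18.8 CPM) were not called. Fitting the controls and double knockouts alone left 1 call, and 4 of the 10 were called with each library left out in turn (Slc25a24, Slc25a34, Slc25a42 and Slc25a48). Leaving out 1 library at a time gave 4 calls (without control replicate 2) to 14 (without double knockout replicate 1). The counts of these alternative fits were not set against the share of all genes called in them.

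Of the 5 lists in the double knockout, none of the import or mass genes was called, 4 of 15 other transporters fell, led by the sodium/calcium exchanger Slc8b1 (-1.02 ± 0.13), and 5 enzymes rose and 2 fell. Acly, which splits the citrate exported by Slc25a1, rose by 0.94 ± 0.20 and Bckdha fell by 0.70 on the log2 scale. Ucp1 rose by 2.43 ± 0.31 and the carrier-like Mtch1 fell by 0.44 on that scale.

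In Runx1 knockout iWAT 9 of 42 carriers were called (21.4%, against 7.48% of all genes), 6 higher (14.3%, against 4.45%) and 3 lower (7.14%, against 3.03%). The groups did not overlap for 19 carriers (45.2%, against 31.4% of all genes). Slc25a20 read 127, 136 and 81.8 CPM in controls and 231, 208 and 218 CPM in knockouts (0.93 ± 0.18, adjusted p = 0.018). The call of Slc25a20 was lost without knockout replicate 1, 2 or 3 (adjusted p up to 0.085) and with a skeletal muscle covariate. Slc25a20 was among the 6 carriers called in the opposite direction with RUNX1 overexpression in cultures. Slc25a33 was the 1 called in the same direction, lower in both. These 2 counts were not set against the share of all genes. The carboxylate carriers Slc25a1 (206 to 237 against 313, 361 and 392 CPM, 0.65 ± 0.14) and Slc25a11 (69.8, 69.6 and 63.5 against 96.4, 116 and 107 CPM, 0.66 ± 0.12) rose as well, as did the glutamate carrier Slc25a22 (49.6, 66.5 and 61.2 against 108, 90.1 and 86.7 CPM, 0.68 ± 0.14) and the little-studied Slc25a35 (14.5, 8.10 and 13.5 against 26.9, 25.2 and 19.1 CPM, 0.98 ± 0.24). Their adjusted p-values were 0.013 to 0.035, and knockouts and controls were separate for each. With each library left out in turn, Slc25a1 was called in 3 of 6 fits, Slc25a11 in 4, Slc25a22 in 2 and Slc25a35 in 2, and the call was lost without knockout replicate 2 or 3 for all 4. Of the 9 called carriers 1 was called under every alternative.

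Slc25a25 had the widest gap of all carriers, at 193, 774 and 361 CPM in Runx1-floxed controls and 26.8, 28.6 and 35.9 CPM in knockouts. Every control lay far above every knockout, and the log2 fold change of Slc25a25 was -3.86 ± 0.59 (adjusted p = 0.029). The 3 controls differed widely among themselves. Slc25a25 stayed negative (-4.23 to -3.20) with each library left out, but was not called without control replicate 3 or any 1 of the knockout libraries (adjusted p up to 0.14). Slc25a33 read 43.4, 54.0 and 50.3 CPM in controls and 27.4, 25.8 and 26.0 CPM in knockouts (-0.90 ± 0.14, adjusted p = 0.0071), and the orphan Slc25a53 read 26.9, 22.1 and 18.5 CPM and 9.64, 8.42 and 13 CPM (-1.12 ± 0.22, adjusted p = 0.017). Neither had overlapping groups. The call of Slc25a33 was lost without knockout replicate 2 (adjusted p = 0.053), and that of Slc25a53 without knockout replicate 1 or 2 (adjusted p up to 0.097) and with a skeletal muscle covariate.

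Skeletal muscle markers summed to 17, 8652 and 73 CPM in these controls and 255, 19404 and 9342 CPM in the knockouts. Endothelial markers summed to 939 to 1401 CPM in controls and 585 to 853 CPM in knockouts, with 2 of 6 called lower. Brown fat markers summed to 142 to 192 and 225 to 333 CPM, with 2 of 7 called higher and 1 lower, and 1 of 7 macrophage markers (Mrc1) was called lower. The part of the endothelial, brown fat and macrophage markers in the carrier results was not tested. With a skeletal muscle score as a covariate 4 carriers were called, among them Slc25a25, Slc25a33 and Slc25a35. Slc25a1, Slc25a11, Slc25a20, Slc25a22 and Slc25a53 lost their calls in that fit. Without the 3 libraries above 1000 CPM of skeletal muscle markers 1 knockout library remains against 2 controls. It is assumed to vary like the controls, and the 7 calls of that fit do not test the effect free of muscle. Without knockout replicates 1, 2 or 3 the count was 4, 1 and 3, and without control replicates 1 to 3 it lay between 6 and 10. None of the counts from these alternative fits was set against the share of all genes called in the same fit. They are therefore not read as a carrier result. In the lists, 6 of 13 import genes rose, with Timm13 at 1.16 ± 0.15, and 3 of 14 mass genes (Tufm 0.79), 2 of 15 other transporters (the pyruvate carrier subunit Mpc2, 0.93), 2 of 23 enzymes (Gpd1 1.04) and Ucp1 (2.88 ± 0.53) rose, while none fell.

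**Figure D3:**
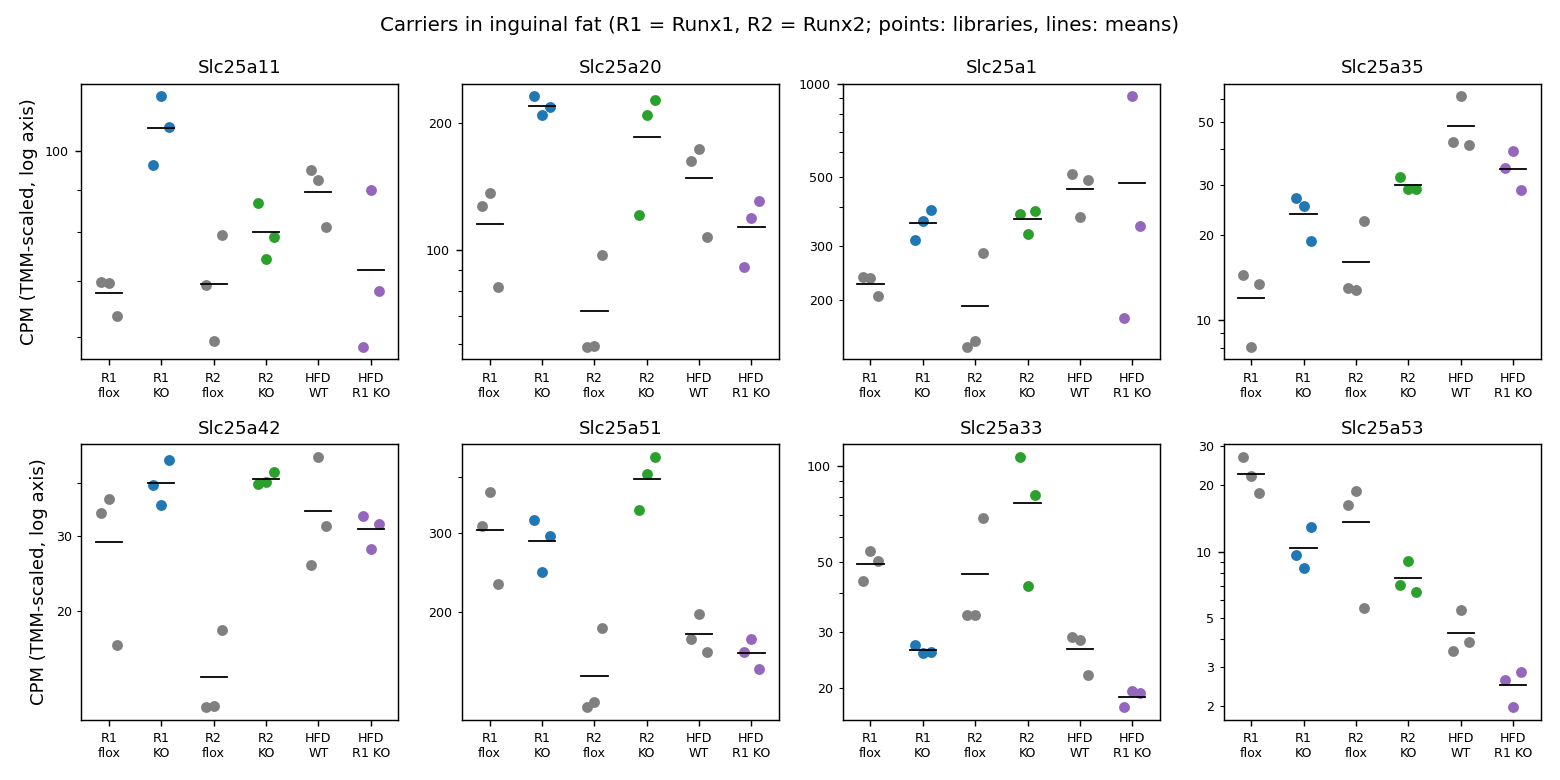
CPM on log axes of 8 carriers in the 6 iWAT groups (points are libraries, lines are means, and each pair of groups comes from a separately scaled table). Slc25a20 is above all its controls in the 3 Runx1 knockout libraries, at 208 to 231 against 81.8 to 136 CPM, and Slc25a42 and Slc25a51 are above all controls in the 3 Runx2 knockout libraries. No carrier was called in the Runx2 set, and Slc25a42 and Slc25a51 were chosen after their values were seen.

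Runx2 knockout iWAT had 0 of 42 carriers called, as it had 0% of all genes, while 19 carriers had an unadjusted p under 0.05 and DESeq2 called 10. Neither the 19 nor the 10 was set against the matching share of all genes. The median log2 fold change over the carriers was 0.44, against -0.04 over all genes, and 22 carriers had groups that did not overlap (52.4%, against 24.6% of all genes). Of the 42 carriers 29 had positive and 13 negative changes (-1.10 to 2.26). With no carrier called, Slc25a42 and Slc25a51 were chosen after their values were seen. Slc25a42 read 11.9, 12 and 18.1 CPM in floxed controls and 39.9, 40.3 and 42.5 CPM in knockouts (1.55 ± 0.21, adjusted p = 0.22). Slc25a51 read 123, 126 and 185 CPM and 338, 406 and 444 CPM (1.45 ± 0.24, adjusted p = 0.22). Slc25a20 read 59.2, 59.5 and 97.2 CPM in controls and 121, 209 and 227 CPM in knockouts (1.37 ± 0.31, adjusted p = 0.22). Slc25a25 read 260, 299 and 758 CPM in controls and 1058, 490 and 668 CPM in knockouts, which overlap (0.75 ± 0.48).

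The Runx2-floxed controls were unlike each other. Adipocyte markers summed to 12824, 15538 and 33268 CPM in control replicates 1 to 3, against 32997 to 41961 CPM in knockouts, and B cell markers to 1808, 1826 and 299 CPM, against 265 to 611 CPM. Replicate 3 was the one with 9867 CPM of skeletal muscle markers. Without it 28 carriers were called, 21 higher and 7 lower, but 40.0% of all genes were called too. In that fit Slc25a20 changed by 1.65, Slc25a25 by 1.41 and Slc25a34 by 4.05. Slc25a34 was chosen after its values were seen, and no carrier exceeded 2.26 with all libraries. With a B cell score as a covariate 3 carriers were called, and with a skeletal muscle score 20. These 2 counts were not set against the share of all genes called in the same fits, so they are not read as a carrier result. The part of adipocyte, B cell and muscle content in these values was not tested. No gene of the 5 lists was called, with list medians of 0.55 to 0.85.

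In the HFD set 0 of 40 carriers were called (2.11% of all genes were), with 4 at an unadjusted p under 0.05, and DESeq2 called 0. Slc25a20 read 162, 174 and 108 CPM in WT and 91.1, 119 and 131 CPM in knockouts, and Slc25a25 read 32.7, 59.9 and 56.4 CPM and 54.2, 49.8 and 40.3 CPM. Both overlapped, at -0.38 ± 0.24 and -0.05 ± 0.25. Slc25a1 spread from 175 to 912 CPM among the 3 knockouts. Slc25a33, Slc25a35 and Slc25a53 had negative changes at an unadjusted p of 0.039 to 0.048 (-0.50, -0.51 and -0.79). These carriers were named after their values were seen, and the lowest adjusted p of any carrier by edgeR's test was 0.45. The 4 under 0.05 were not set against the matching share of all genes. B cell markers summed to 196 to 449 CPM in WT and 3 to 4 CPM in knockouts, and no gene of the lists was called. The Runx1 effect was not tested between the HFD and the other iWAT set, which were scaled and fitted apart.

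Slc25a25 was set beside 7 genes known to respond quickly to cAMP or other signals, chosen after their values were seen. In the Runx1 iWAT set Ppargc1a, a coactivator of mitochondrial genes, read 115, 99.5 and 91.5 CPM in controls and 21.8, 12.4 and 37.1 CPM in knockouts (-2.10 ± 0.40, adjusted p = 0.038), and Per1, a clock gene, fell by 1.40 on the log2 scale (adjusted p = 0.0070). Nr4a3, a nuclear receptor, read 511, 497 and 218 CPM in controls and 74.3, 43.3 and 126 CPM in knockouts (adjusted p = 0.067). The kinase Sik1 read 91.2, 283 and 311 CPM and 28.9, 20.4 and 37.7 CPM (adjusted p = 0.052). Groups were separate for all 4 and for Nr4a1 (adjusted p = 0.098), as for 31.4% of all genes in this set. Fos overlapped, with 9.04, 28.5 and 38.2 CPM in controls and 19.9, 1.98 and 4.01 CPM in knockouts. Egr1 overlapped too, with 36.9, 87.7 and 67.4 CPM in controls and 41.4, 19.1 and 24.8 CPM in knockouts (adjusted p = 0.16). In all, 2 of the 7 genes were called lower in this set. In the Runx2 set, where no gene of any kind was called, Nr4a3 read 113, 87.5 and 180 CPM in controls and 553, 276 and 410 CPM in knockouts, and Ppargc1a 37.9, 36.0 and 68.8 CPM and 166, 132 and 185 CPM. Both had separate groups, with knockouts above controls. Nr4a1, Sik1, Per1, Fos and Egr1 had overlapping groups in the Runx2 set, with log2 fold changes of -0.43 to 0.15. In the HFD set 0 of the 7 were called by edgeR. The part of these genes' signals in the Slc25a25 result was not tested.

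**Figure D4:**
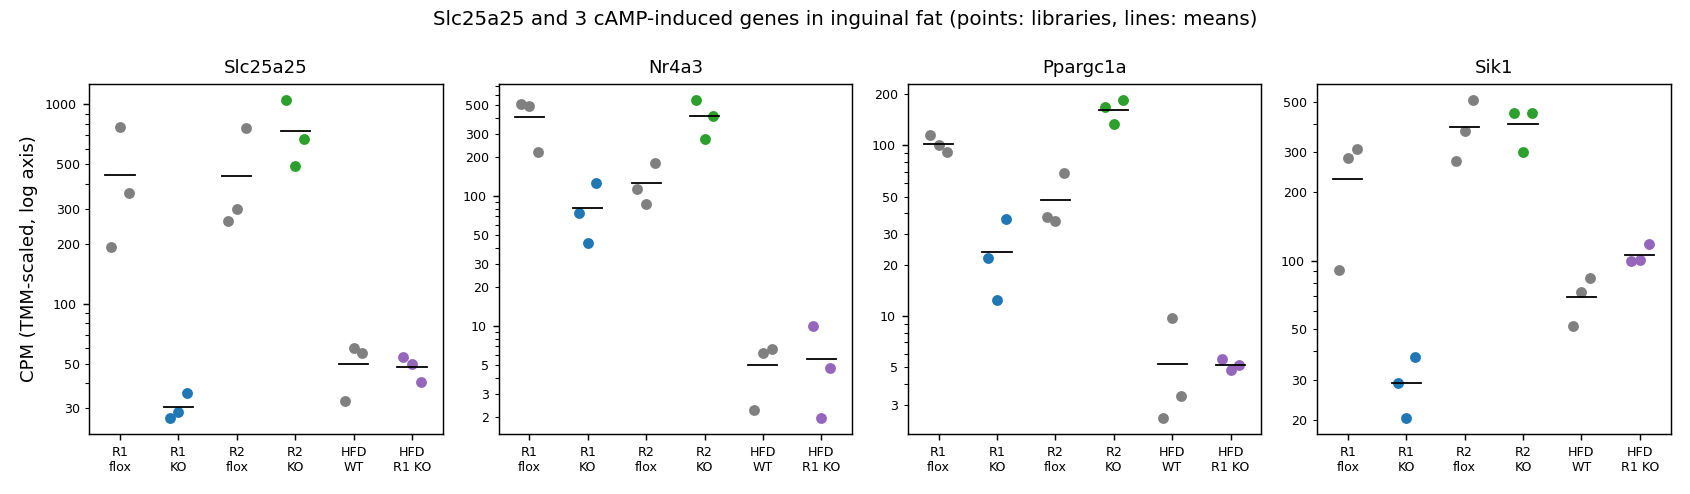
CPM on log axes of Slc25a25, Nr4a3, Ppargc1a and Sik1 in the 6 iWAT groups (points are libraries and lines are means). All 3 Runx1 knockout libraries lie below all Runx1-floxed controls for each gene, with Slc25a25 at 26.8 to 35.9 against 193 to 774 CPM. The groups of that set were separate for 31.4% of all genes. Nr4a3, Ppargc1a and Sik1 are from 7 genes chosen after their values were seen. Nr4a3 and Sik1 were not called in that set, and Fos and Egr1, which overlapped, are not drawn.

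IDR-deleted Runx2 was compared with full-length Runx2, with 2 libraries each. Runx2 transcript read 293 and 294 CPM with full-length and 115 and 143 CPM with deleted Runx2, so dose and deletion cannot be told apart. Runx1 transcript was also lower with deleted Runx2, at 3.38 and 4.30 against 8.37 and 8.04 CPM (-1.09 ± 0.20, adjusted p = 0.00033). Of 42 carriers 1 was called (2.38%, against 3.91% of all genes). That was the FAD/folate carrier Slc25a32, at 51.5 and 45.6 CPM with full-length and 33.8 and 41.7 CPM with deleted Runx2 (-0.36 ± 0.11, adjusted p = 0.038), a call lost in DESeq2 and without full-length replicate 1 or deleted replicate 1. Slc25a20 read 120 and 110 CPM against 143 and 128 CPM with the deletion (0.24 ± 0.08, adjusted p = 0.10), and Slc25a25 read 22.6 and 19.5 CPM against 20.9 and 19.1 CPM. In the lists Lonp1 (0.38), Gpd1 (0.41), Me1 (0.37) and Ucp1 (1.18 ± 0.25) rose, and Slc8b1 (-0.48) and Sfxn1 (-0.30) fell. This set held no control group like OEV. Its full-length libraries had Runx2 near the level of the RUNX2 cultures (281 to 332 CPM). Their Slc25a20 was above and their Slc25a25 below the levels of those cultures. Brown fat markers summed to 260 to 279 CPM in them and 28 to 37 CPM in the RUNX2 cultures. The 2 sets were scaled and fitted apart, and their difference was not tested.

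Over the 10 comparisons 35 carriers were called at least once, 8 were tested and never called, and 4 were never tested. The 8 were Slc25a2 (an ornithine carrier), both aspartate/glutamate carriers Slc25a12 and Slc25a13, Slc25a17, Slc25a18, the oxodicarboxylate carrier Slc25a21 and the orphans Slc25a45 and Slc25a47.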

How the data were processed

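RNA-seq counts per gene from 43 libraries in 15 groups were analysed. Per the submitters' processing notes, the authors used fastp, STAR, the mm39 genome and featureCounts; versions and options are not given in the sources used here. The deposited values are raw counts per gene, 1 column per library. The authors' deposited lists of changed genes hold log2 fold changes and p-values, per the file headers, and none of the 47 carriers is in them. Their 10 per-sample columns were not used.

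Samples were grouped by label. The 6 tables were fitted separately with edgeR's robust quasi-likelihood test (edgeR 4.0.16, R 4.3.3), after filterByExpr and TMM scaling. P-values were Benjamini-Hochberg adjusted over all tested genes, and called or changed means an adjusted p under 0.05. CPM are TMM-scaled, and ± after a log2 fold change is its standard error. Totals of 28.1 to 52.2 M counts limit precision for the lowest carriers. Low counts (1 to 19) were even in 71.1 to 81.9% of cases per library, as counting each mate of a read pair would give. Levels per kilobase used exon lengths of GENCODE vM21. Near-identical genes may share reads. No 2 libraries agreed within sampling noise.

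The carriers and lists were chosen with earlier results of these data known. Named were Slc25a20 and Slc25a25 everywhere and, with values per library, up to 6 called carriers each way by fold change with a group mean of at least 1 CPM, with others named to account for each role. In iWAT sets without a called carrier, others were named after their values were seen. A carrier withheld for evaluation counts in the totals but is not reported here. List genes named were up to 2 of lowest adjusted p each way. As alternatives, DESeq2 1.42.0 was used for scaling and for testing, the count filter was dropped, a replicate block was added, libraries were left out in turn, and the compared groups were fitted alone. B cell and skeletal muscle scores were tried as covariates, and muscle-carrying libraries were left out. The 1000 CPM threshold for these in Runx1 iWAT was added after seeing the data. The main fits did not treat libraries of the same replicate number as pairs, and the labels do not say whether they were. The procedure was tested on simulated counts. Figures used Python 3.11.15 and matplotlib 3.10.9.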

Additional observations from a re-analysis of the deposited data

Results flagged for a closer look

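Slc25a10 was picked out because RUNX1 and RUNX2 overexpression moved it in opposite directions and the difference itself passed edgeR's test. Its log2 fold change was 0.58 with RUNX1 and -0.41 with RUNX2, a difference of -0.99 (adjusted p = 7.8e-05), with all 3 RUNX2 libraries below all 3 RUNX1 libraries.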

How the results depend on the processing

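The number of called carriers stayed within 1.5 times its value except as follows. The double knockout kept 1 call when only the compared groups were fitted. The IDR comparison had 0 with DESeq2 testing, 2 with no count filter and 2 with the replicate block. Runx1 knockout iWAT had 4 with a skeletal muscle covariate. Runx2 knockout iWAT had 10 with DESeq2 testing, 28 without its muscle-carrying control, 3 with a B cell covariate and 20 with a skeletal muscle covariate. Of the counts under alternatives in this section, only the 28 was set against the share of all genes called in its fit. With each library left out the counts ran from 22 to 28 with RUNX1, 28 to 32 with RUNX2, 21 to 27 between them, 4 to 14 in the double knockout, 1 to 10 in Runx1 knockout iWAT, 0 to 28 in Runx2 knockout iWAT and 0 to 6 for the IDR, and stayed 0 in the other 3 comparisons. Libraries of the same replicate number were not taken as pairs, since no table had every same-number correlation over 0.1. That check cannot exclude pairing. The correlations were 0.25, 0.33 and -0.21 in the Runx1 iWAT set and 0.03, 0.20 and 0.41 in the Runx2 iWAT set. With the replicate block the counts were 27, 31 and 22 in the overexpression comparisons, 7 in the double knockout and 7 in Runx1 knockout iWAT. Of 1327 values under alternatives, which cover the carriers called in a comparison plus Slc25a20 and Slc25a25, 125 lost a call, 7 gained one, and 16, all uncalled, changed sign. The causes were not tested, beyond fewer libraries in the fits that leave some out. Depth limits carriers near or under 1 CPM, such as Slc25a48.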

Other observations

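The 7 quickly responding genes set beside Slc25a25, chosen after their values were seen, were also read in the cultures. With RUNX2, 5 of the 7 rose, among them Nr4a1 (5.70 ± 0.19), Fos (5.08 ± 0.11), Nr4a3 (4.26 ± 0.79) and Egr1 (4.01 ± 0.10), all log2 fold changes with SE, and none fell. With RUNX1, Egr1 rose (0.24 ± 0.08) and 4 fell, among them Ppargc1a (-1.28 ± 0.25) and Sik1 (-0.80 ± 0.16). Slc25a25 rose with both factors. In the single knockout cultures none of the 6 tested was called by edgeR, and in the double knockout Ppargc1a rose (0.87 ± 0.23) and Per1 fell (-0.70 ± 0.20).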
